A study of Caenorhabditis elegans with 2 samples.

Results

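The genes described here are 10 regulators of insulin signalling and stress resistance in Caenorhabditis elegans: daf-2, age-1, daf-18, akt-1, daf-16, skn-1, hsf-1, ftt-2, par-5 and hcf-1. They were taken as a list named by function, out of 19973 protein-coding genes in the annotation. For each gene, the LET-526 peaks were taken whose summit lay between 1000 bp upstream of any annotated transcript start and the end of the gene, a stretch called the gene window. Binding of LET-526 was measured by chromatin immunoprecipitation with sequencing (ChIP-seq) in whole animals of strain RW12306. These worms carry let-526::TY1::EGFP::3xFLAG, made by CRISPR insertion, and were synchronised by starvation as first-stage larvae and collected as young adults at 60 hours. There was 1 group with 2 biological replicates, and sonicated chromatin was recovered with an anti-GFP antibody. Untagged animals and control libraries were not analysed here. Because whole animals were used, binding in few cells and weak binding in many cells cannot be told apart, and neither can the tissue.

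LET-526 corresponds to mammalian ARID1 proteins, DNA-binding parts of SWI/SNF, a complex that remodels nucleosomes. In the insulin pathway, the receptor DAF-2 activates the lipid kinase AGE-1, whose product recruits AKT kinases. AKT phosphorylation keeps the FOXO transcription factor DAF-16 in the cytoplasm, where phosphoserine-binding adaptors of the FTT-2 and PAR-5 family hold it. SKN-1 (an Nrf factor) and HSF-1 (the heat shock factor) drive oxidative and heat stress genes, and HCF-1 is a nuclear repressor of DAF-16. SWI/SNF is known as a cofactor of DAF-16 at its target genes, which is a different matter from binding at the pathway genes themselves.

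The sequences under the peaks are shown for ftt-2, skn-1 and daf-2. These are the strongest peak at any member, the peak that sits on an annotated transcript start, and the peak at the receptor gene. Positions are on ce11 (WBcel235), and each is the whole 270 bp peak on the minus strand, which is the coding strand of all 3 genes. The ftt-2 peak is chrX:11605814-11606083, upstream of the gene, and capitals mark the summit with 10 bases on each side. The skn-1 peak is chrIV:5660229-5660498, and capitals mark its 129 coding bases, which open with the first ATG of transcript T19E7.2a. No UTR bases are annotated in this peak, so the annotated start there is the start of the coding sequence. The daf-2 peak is chrIII:2997075-2997344, mostly coding exon, and capitals mark an unbroken run of 7 CAG triplets.
ftt-2: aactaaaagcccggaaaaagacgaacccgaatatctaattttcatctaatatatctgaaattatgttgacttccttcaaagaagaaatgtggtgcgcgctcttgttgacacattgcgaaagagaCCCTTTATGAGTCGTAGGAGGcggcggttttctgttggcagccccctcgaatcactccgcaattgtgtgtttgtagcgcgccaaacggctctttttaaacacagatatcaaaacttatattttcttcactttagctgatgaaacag
skn-1: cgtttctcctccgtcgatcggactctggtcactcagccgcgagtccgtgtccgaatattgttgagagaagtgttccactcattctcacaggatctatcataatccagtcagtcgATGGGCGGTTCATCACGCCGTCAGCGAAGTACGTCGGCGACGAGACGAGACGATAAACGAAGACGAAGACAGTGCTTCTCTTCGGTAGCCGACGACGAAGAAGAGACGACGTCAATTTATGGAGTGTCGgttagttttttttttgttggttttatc
daf-2: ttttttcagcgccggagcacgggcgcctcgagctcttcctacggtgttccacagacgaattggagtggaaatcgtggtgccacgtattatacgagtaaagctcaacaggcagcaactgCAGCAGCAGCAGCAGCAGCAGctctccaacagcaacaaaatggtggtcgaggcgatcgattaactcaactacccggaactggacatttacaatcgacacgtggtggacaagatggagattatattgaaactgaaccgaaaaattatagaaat

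Of the 10 genes, 4 had a peak in the thresholded list made from both replicates. They were the transcription factor genes daf-16 and skn-1 and the adaptor genes ftt-2 and par-5. Over all protein-coding genes, 4.87% had such a peak. A narrower reading, a summit from 1000 bp upstream to 200 bp downstream of an annotated start, kept daf-16, skn-1 and ftt-2, beside 3.72% of all genes. None of the genes from the receptor down to the kinase (daf-2, age-1, daf-18 and akt-1) was in this list, nor were hsf-1 and hcf-1. The 4 genes held 8 peaks, with a median signal of 77.2, the signal being the peak caller's own value for enrichment. The whole list of 1200 peaks had a median signal of 92.3 and a lower quartile of 79.1. Only the ftt-2 peak exceeded that median, and 5 of the 8 lay below the lower quartile.

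**Figure D1:**
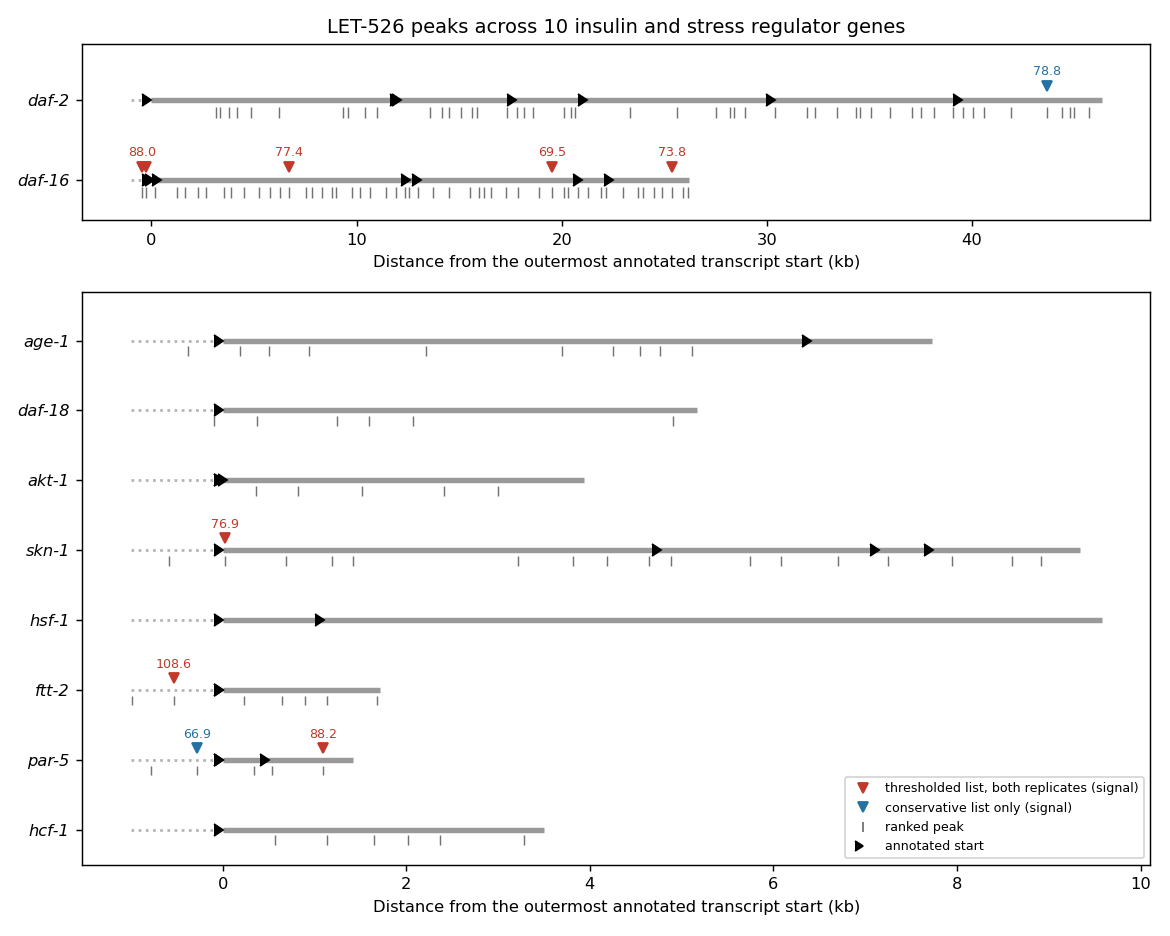
Gene windows drawn as distance in kb from the outermost annotated transcript start (grey bars, gene; dotted, 1000 bp upstream; black arrowheads, transcript starts), with ranked peaks as ticks below and thresholded peaks as triangles above, labelled with their signal. Red triangles mark the list of both replicates and blue the peaks found in the conservative list alone; daf-16 carries peaks along its length, from 88.1 at its first start to 73.8 in its 3′ UTR, and hsf-1 shows no tick.

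Longer genes offer more room for a peak, and the members are long. Their median window was 7.45 kb against 3.03 kb for all protein-coding genes. Among genes with windows under 5 kb, 3.74% had a thresholded peak, and of the 4 members of that size, ftt-2 and par-5 had one while akt-1 and hcf-1 did not. At 5 to 10 kb the share was 7.98%, and neither age-1 nor daf-18 had a peak. At 10 to 20 kb it was 10.1%, with skn-1 having a peak and hsf-1 having none. At 20 kb or more it was 15.2%, with daf-16 having a peak and daf-2 having none. No test of the members' count was made, since the list is short and was chosen by hand.

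**Figure D2:**
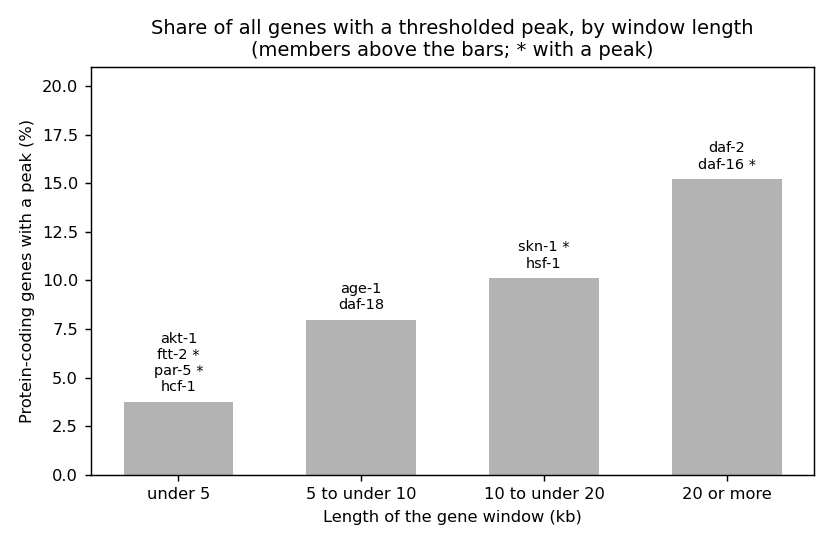
Percentage of all protein-coding genes with a thresholded peak in the window (vertical axis), by window length in kb (horizontal axis). Bars rise from 3.74% under 5 kb to 15.2% at 20 kb or more; the members of each length class stand above the bar, with an asterisk for those with a peak.

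The receptor gene daf-2 spans 47.3 kb of window on chromosome III, with 7 transcripts that each have a start of their own. It had 50 peaks in the ranked list of both replicates, which keeps peaks far below the threshold. Its strongest, with a signal of 78.8, had its summit at 2997210, in a coding exon 4102 bp downstream of the nearest start, that of Y55D5A.5g, and 43636 bp from the outermost start. The signal there was 43.3 in replicate 1 and 33.4 in replicate 2. Each peak also carries a score of at most 1000 that reflects the irreproducible discovery rate (IDR), a measure of how well its rank repeats, with 830 as the smallest value kept by thresholding (an IDR of about 0.01). The daf-2 peak scored 752 in the comparison that gave the list of both replicates and 877 in that of replicate against replicate. It therefore appears in the conservative list, made from the second comparison, and not in the larger list. The next strongest daf-2 peak, at 71.4, lay in an intron, 3333 bp downstream of the outermost start and 30 bp from the start of the long non-coding RNA linc-143, and its score was 359.

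The kinase genes downstream of the receptor had weaker peaks. For age-1, which encodes the catalytic subunit of the lipid kinase, the strongest of 10 ranked peaks had a signal of 31.8, and its summit lay 374 bp upstream of B0334.8a with a score of 34. That is the lowest score in the list of both replicates, and neither replicate's own ranked list had a matching peak. For akt-1, which encodes an AKT kinase, the strongest of 5 was 37.1 in a coding exon, 2950 bp downstream of a start. Over all protein-coding genes the median of the strongest ranked signal was 37.4, so both genes were under the middle of the annotation. A thresholded peak lay just outside the akt-1 window, 1728 bp upstream of C12D8.10b. Its signal was 71.4, with 38.1 in replicate 1 and 35.0 in replicate 2. Its score was 876, and 827 in the comparison of replicate against replicate. The nearest protein-coding start is that of akt-1, but an annotated non-coding RNA, C12D8.25, starts 80 bp from the summit.

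The FOXO gene daf-16 held 5 of the 8 peaks. It was the only 1 of 19973 genes with 5 peaks of the thresholded list in its window. Of those, 2 overlap and match the same replicate peaks, so that 4 stand apart, a number reached by 6 genes in all when overlapping peaks are counted once. Its window of 27.2 kb on chromosome I holds 11 transcripts from 7 starts. The strongest peak, with a signal of 88.1, had its summit at 10750055, 443 bp upstream of R13H8.1h, the outermost start. Replicate 1 gave 52.0 and replicate 2 gave 33.1. The overlapping peak, of 10.6, lay 242 bp upstream of the same start. The second, of 77.4, was in an intron at 10757201, 5902 bp from the nearest daf-16 start (R13H8.1b and R13H8.1c) but 2 bp from the start of an annotated non-coding RNA, R13H8.4. Replicate 1 gave 55.4 there and replicate 2 gave 23.1. A peak of 73.8 lay in the 3′ UTR at 10775852, 2853 bp downstream of R13H8.1e, with 44.1 and 34.2 in the replicates. The last, of 69.4, was in an intron at 10770040, 1468 bp upstream of R13H8.1a, and the replicates gave 39.3 and 38.8. A further 3′ UTR peak, of 77.1, scored 383 and stayed under the threshold although its signal was higher than the 73.8 and 69.4 of the listed daf-16 peaks just described. Peaks at daf-16 were thus spread from the first start to the 3′ UTR, and 1 place among them lay within 1000 bp upstream of a start.

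The skn-1 peak was at the outermost of that gene's 4 annotated starts. Transcript T19E7.2a encodes the longest form of SKN-1, known as the form tied to the endoplasmic reticulum that induces proteasome genes. The summit, at 5660364 on chromosome IV, lay 20 bp inside its first coding exon, and the signal was 76.9. Replicate 1 gave 47.6 and replicate 2 gave 27.3, and neither replicate's own thresholded list held the peak. The score was 922 in the comparison behind the list of both replicates and 690 in that of replicate against replicate, so the conservative list lacks skn-1. The next skn-1 peak, of 53.3 with a score of 452, lay in an intron 1567 bp upstream of T19E7.2c.

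The heat shock factor gene hsf-1 stood apart, with no peak in 3 of the 4 ranked lists. Its window of 10.6 kb held a single peak in replicate 1 alone, of 25.1 in the 3′ UTR with a score of 57. In the ranked list of both replicates, 15998 bp separated the summits on either side of it, and 85 of 12204 such gaps on chromosome I were as long. Of protein-coding genes with windows of at least 10 kb, 6.33% had no ranked summit.

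The adaptor genes ftt-2 and par-5, whose products bind phosphorylated proteins including DAF-16, each had 1 thresholded peak in a window under 3 kb. At ftt-2, the signal of 108.6 was the highest of any member, 366th among the 1200 peaks. Its summit, at 11605949 on chromosome X, was 530 bp upstream of F52D10.3c, and an annotated non-coding RNA, F52D10.7, starts 40 bp away. Replicate 1 gave 76.1 and replicate 2 gave 29.5. At par-5, known for embryonic polarity, the peak of 88.2 was in the 3′ UTR at 11820826 on chromosome IV, 592 bp downstream of M117.2b and 1098 bp from the outermost start. Replicate 1 gave 48.8 and replicate 2 gave 41.4. The conservative list held a second par-5 peak, of 66.9, 280 bp upstream of M117.2a.4, with 48.4 and 38.0 in the replicates. Its summit was 2 bp from the start of another gene, M117.3, and a peak between neighbouring starts cannot be given to either. Its score was 1000 in the comparison of replicate against replicate and 762 in the other. The repressor gene hcf-1 had 6 ranked peaks, the strongest 26.9 in a coding exon with a score of 90, and 27.0% of genes had a weaker strongest peak.

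**Figure D3:**
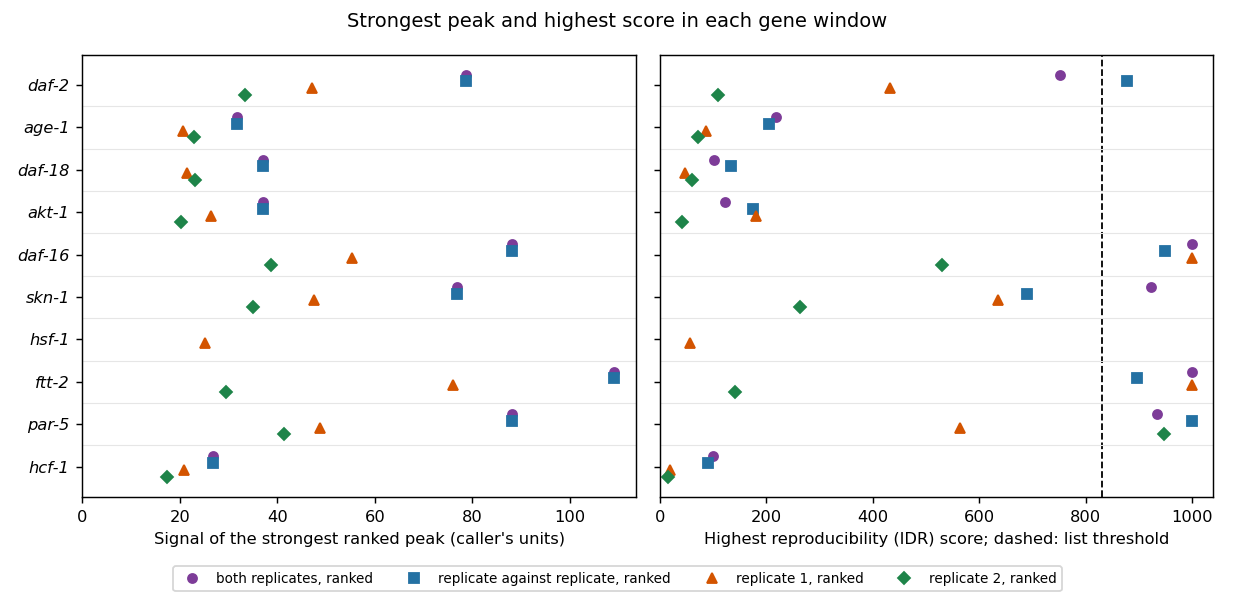
Signal of the strongest ranked peak (left, caller's units) and highest IDR score (right; dashed line, 830, the lowest score in the thresholded lists) in each gene window, 1 symbol per ranked list. The 5 genes daf-2, daf-16, skn-1, ftt-2 and par-5 have a strongest signal of 76.9 or more in the list of both replicates, and the other 4 genes with a ranked peak have 37.1 or less; signals are not on 1 scale between lists of different depth.

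By strongest signal in the ranked list of both replicates, the members fell into separate levels. From the top, ftt-2 exceeded 98.3% of all protein-coding genes, par-5 and daf-16 96.8% each, daf-2 95.6% and skn-1 95.4%. Well under these came akt-1 at 49.2%, age-1 at 36.5% and hcf-1 at 27.0%. A long window has more chances of a strong peak, and daf-2 and daf-16 have the longest. Ranked peaks per 10 kb of window, which takes length into account, numbered 25.81 at ftt-2, 20.67 at par-5, 18.75 at daf-16 and 16.43 at skn-1. They numbered 13.32 at hcf-1, 11.46 at age-1, 10.56 at daf-2 and 10.12 at akt-1, and the median over all genes was 8.65. By the same share, the gap between the levels was narrower in each replicate alone. In replicate 1 akt-1 exceeded 67.6% of genes and hsf-1 63.3%, beside 95.9% for daf-2, the lowest of the upper level. In replicate 2 age-1 exceeded 65.9%, beside 86.0% for ftt-2. The order of the strongest peaks within the upper level also differed between replicates. In replicate 1 ftt-2 came first with 76.1, ahead of daf-16 with 55.4. In replicate 2 par-5 came first with 41.4, ahead of daf-16 with 38.8 and skn-1 with 35.1, and ftt-2 had 29.5. These are not always the same peaks. The daf-16 values of 55.4 and 38.8 belong to different intronic peaks. The skn-1 value of 35.1 belongs to its intronic peak of 53.3, and its start peak had 27.3 in replicate 2.

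None of the 8 member peaks was in the thresholded lists of both replicates. The ftt-2 peak and the intronic daf-16 peak of 77.4 were called in replicate 1 only, the par-5 peak in replicate 2 only, and the other 5 in neither. Over the whole list of 1200 peaks, 22.8% appeared in the thresholded lists of both replicates and 43.3% in neither list. Taken alone, replicate 1 gave 2 members, daf-16 and ftt-2, beside 2.53% of all genes, and replicate 2 gave 1, par-5, beside 1.88%. Near a start, replicate 1 kept ftt-2 beside 2.02% of all genes, and replicate 2 kept 0 members beside 1.46%. The conservative list gave 4 members, daf-2, daf-16, ftt-2 and par-5, beside 4.52%. Near a start it gave 3, daf-16, ftt-2 and par-5, beside 3.46%. Here par-5 counts only by the peak whose summit is 2 bp from the start of M117.3, which cannot be given to either gene. Signal was higher in replicate 1 at all 8 peaks, with a median ratio of 1.57. Replicate 1 was also higher over the list as a whole, with a median ratio of 1.26 and a range from 0.70 to 2.32 between the 5th and 95th percentiles over 1170 peaks found in both. At ftt-2 the ratio was 2.58, and 3.08% of those peaks had one at least as high. At the intronic daf-16 peak it was 2.40, which 4.53% reached.

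**Figure D4:**
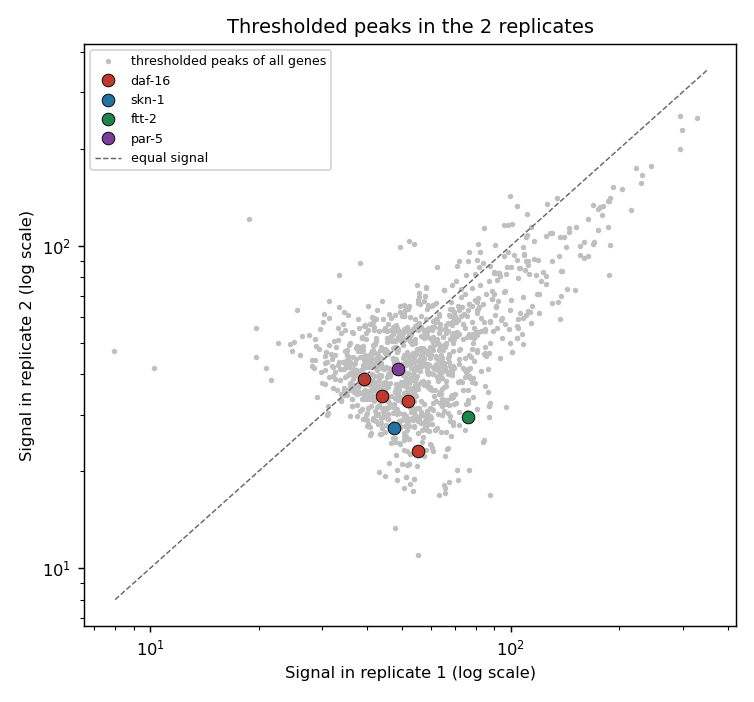
Signal in replicate 1 (horizontal, log scale) against replicate 2 (vertical, log scale) for the thresholded peaks found in both replicates (grey) and for the member peaks (coloured by gene); the dashed line marks equal signal. All member peaks lie on the replicate 1 side of the line, with ftt-2 (76.1 and 29.5) and a daf-16 peak (55.4 and 23.1) farthest from it, and both overlapping daf-16 peaks share 1 point.

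Some members had peaks with scores near the threshold. Others were far below it in the ranked list of both replicates, with a highest score of 218 at age-1, 123 at akt-1 and 100 at hcf-1. The lowest scores inside the list were 894 for the intronic daf-16 peak, 906 for the other intronic daf-16 peak, 922 for skn-1 and 935 for par-5. The highest outside it were 762 for the peak between the starts of par-5 and M117.3, and 752 for daf-2. At a looser IDR of 0.05, a score of 540, daf-2 joined and 5 members had a peak, against 1840 of all genes in place of 972.

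By position, 3 of the member peaks were upstream of the gene, 2 in introns, 2 in 3′ UTRs and 1 in a coding exon. Over all 1200 summits, 1.67% lay in 3′ UTRs, 7.25% in coding exons, 26.1% in introns and 60.8% outside protein-coding genes. Member summits could lie only in gene windows, and the 1200 had no such limit, so the shares over all summits are not a matched background. The nearest annotated start of any kind belonged to a non-coding RNA for 5 of the 8 member peaks (4 at daf-16 and the 1 at ftt-2), and for 17.8% of all summits. At all 8, the nearest protein-coding start was the member's own. These 8 peaks come from 4 genes, 5 of them from daf-16, so the counts describe few independent places.

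Base composition and short motifs were read in the 300 bases centred on each summit. The median GC content was 43.0% over all summits and 34.3% over promoters of all genes. Member summits ran from 34.3% at the weak daf-16 peak to 54.0% at the intronic daf-16 peak of 77.4, with 49.3% at skn-1, 42.7% at ftt-2 and 39.0% at par-5. The 2 intronic daf-16 summits, at 54.0% and 53.0%, had more GC than 94.0% and 92.4% of all summits. The motifs searched on both strands were GTAAACA (the DAF-16 binding element), CTTATCA (the DAF-16 associated element), TTCNNGAA (a heat shock element core) and CACGTG (an E-box). None of these contains another. GTAAACA was found at the strongest daf-16 summit, and at 4.50% of all summits against 4.77% of promoters. CTTATCA was at the weak daf-16 summit and the upstream par-5 summit, and at 7.67% of summits against 9.19% of promoters. TTCNNGAA was at the intronic daf-16 summit of 69.4, and at 13.9% of summits against 18.9% of promoters. CACGTG was at the daf-2 summit, and at 13.8% of summits against 5.82% of promoters. None of these motifs was in the windows of the daf-16 summits of 77.4 and 73.8, of skn-1, of ftt-2 or of the par-5 3′ UTR peak. A run of 3 or more CAG triplets, as in the daf-2 sequence above, was present at 1.25% of thresholded summits and 0.446% of promoters.

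Other genes of these pathways were counted in 7 lists of ligands, cascade parts, regulators, stress factors and effectors. Of 64 such genes found in the annotation, 10 had a thresholded peak in their window, or 15.6%, beside 4.87% of all genes. Near a start, 7 had one, beside 3.72% of all genes. These shares take no account of window length. The windows of hlh-30 and daf-12 are over 20 kb, where the share of all genes was 15.2%. Those of xbp-1 and rheb-1 are under 5 kb, where it was 3.74%. No insulin-like ligand (0 of 6) and no further part of the receptor to kinase cascade (0 of 8) had a thresholded peak. Both lists are short beside a share of 4.87%. In the cascade, akt-2 had a strongest ranked signal of 82.8 and pdk-1 one of 67.7. Both had a peak at the looser IDR of 0.05, beside 9.21% of all genes. Of 12 genes for other stress and longevity transcription factors or their direct regulators, 4 had a thresholded peak. They were xbp-1, the unfolded protein response factor, with a signal of 99.6 at a summit 3 bp from its start, pqm-1 with 91.0 in an intron, hlh-30, the worm TFEB gene, with 88.3, and the nuclear receptor gene daf-12 with 52.0 and an overlapping 26.7. In the nutrient-sensing arm, 2 of 8 had a peak. The AMP kinase gene aak-2 had 115.9 in an intron, and rheb-1, an activator of TOR, had 90.6 at a summit whose nearest coding start was that of spk-1. Of the DAF-16 regulators, 1 of 7 had peaks, math-33, a deubiquitinase gene, with 93.8 upstream and 93.1 in its 3′ UTR, at summits whose nearest coding starts were those of erfa-3 and scb-1. Of the SKN-1 and HSF-1 regulators, 1 of 8 had one, wdr-23, which encodes the adaptor that turns SKN-1 over, with 92.1 at a summit 103 bp upstream.

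Among 15 stress effector genes, 2 had a thresholded peak, beside 4.87% of all genes. They were the mitochondrial chaperone genes hsp-6, with 93.7, and hsp-60, with 179.0. The hsp-60 peak was called in both replicates, with 90.6 in replicate 1 and 82.4 in replicate 2, and both summits were nearer the start of another gene (C37H5.5 and Y22D7AL.10). The classical DAF-16, SKN-1 and HSF-1 targets on the list, such as sod-3, mtl-1, gst-4, gcs-1 and hsp-16.2, had no thresholded peak. The windows of these genes are under 5 kb, where 3.74% of all genes had one, so most genes of that size had none. The neighbouring genes hsp-16.2 and hsp-16.41 had the same strongest ranked signal, 70.9, with the same score, 549, so 1 shared peak may count for both. Both were counted at the looser IDR of 0.05, beside 9.21% of all genes.

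**Figure D5:**
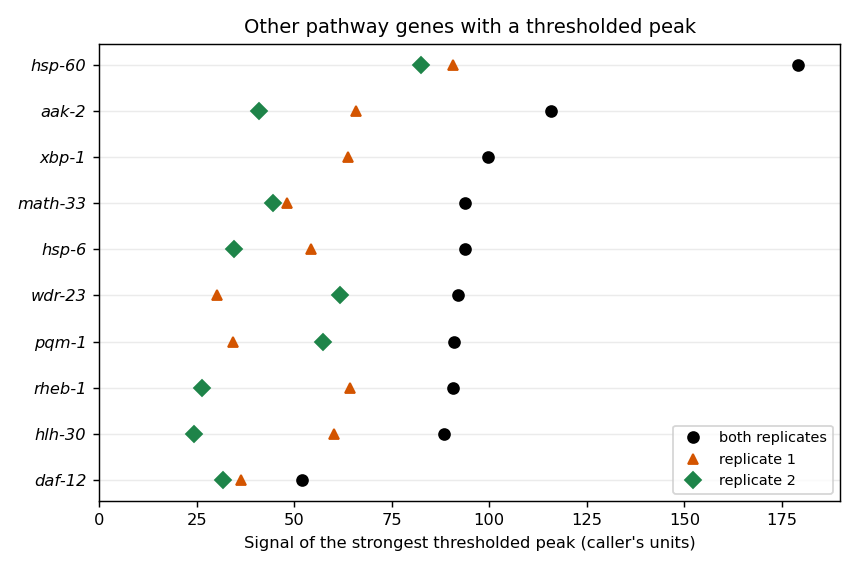
Signal of the strongest thresholded peak at each of the 10 other pathway genes that had one, in the list of both replicates (black) and in replicates 1 (orange) and 2 (green), in the caller's units. The hsp-60 peak, at 179.0, is far above the others, which lie between 52.0 and 115.9; xbp-1 had no matching peak in replicate 2.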

How the data were processed

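Peaks on ce11, per the labels, were deposited as thresholded and as ranked lists, for single replicates and for the pair. The deposited signal is the peak caller's own value and is the authors' value for each peak. The deposited score, at most 1000, and the deposited −log10 IDR of the ranked lists measure reproducibility. Which aligner and peak caller were used is not given in the sources used here. Depth is unknown, because peak lists carry no read counts, and no interval was computed. Replicates are labelled as biological replicates. The ranked lists of both replicates held 81275 peaks and those of replicate against replicate 78700, told apart by which thresholded list each contains.

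Summits were placed on Ensembl release 115 genes (WBcel235) with python 3.11.15 and numpy 2.4.6. Sequence was read from the RefSeq WBcel235 genome. A replicate value is the strongest ranked peak of that replicate overlapping the peak by 1 bp or more. Only the placing of summits in gene windows was checked on simulated data, with the same window definition, and peak calling was not tested. Named genes were the 10 members, other listed genes with a peak in their window, and owners of the nearest start. Members and lists were chosen with earlier results of these data known. With 1 group, no condition was compared and no p-value was computed. The alternatives are given in the closing section. Peaks on chromosome I, or holding UTR bases, are given without sequence. The hsp-16.48 gene, also listed, had no match by name. Some detail on 1 member is not reported here.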

Additional observations from a re-analysis of the deposited data

How the results depend on the processing

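Of 55 recomputed counts (5 results under 11 settings), 37 were within 1.5 times the reported value and 18 were not. With 1 replicate alone, members with a peak numbered 1 to 2 in place of 4, members with a peak near a start 0 to 1 in place of 3, and peaks in member windows 1 to 3 in place of 8. The same settings gave 375 to 505 of all genes in place of 972, and 3 to 5 other pathway genes in place of 10. With peaks above the median signal only, the counts were 1, 1 and 1 for the members, 556 for all genes and 5 for other pathway genes. At an IDR of 0.05 in the ranked list, a setting chosen after seeing the data, all genes with a peak came to 1840 and other pathway genes to 17. The 17 count hsp-16.2 and hsp-16.41 separately. Giving each peak to its nearest start left 6 other pathway genes. With 2000 bp upstream, akt-1 joined the members, and with 500 bp upstream ftt-2 left them. No paired analysis was possible because there was 1 group. Without control libraries and read counts, signal cannot be set against background or depth.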
